A study of Mus musculus with 6 samples.

Results

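Serotonin receptor genes were examined in the cerebral cortex of male mice of the senescence-accelerated mouse family. An age of 16 weeks is given for the animals, and the cortex was taken after the acclimatization, dosing and testing that followed. SAMP8 is the strain prone to accelerated senescence and SAMR1 is the related strain resistant to it, used as the normal-aging control. SAMP8 mice received a sugarcane top ethanolic extract (STEE) by mouth at 20 mg/kg for 30 days. Dosing went on through 8 further days of behavioral testing, and these mice are called STEE-fed SAMP8. SAMP8 control and SAMR1 mice received an equal volume of water over the same days. All animals were also given BrdU, a thymidine analog that labels dividing cells, in their drinking water during part of the dosing period. Each group had 2 arrays, 1 for each biological sample, and whether a sample came from a single mouse is not stated. No transgene or deletion is involved, and strain differences cover every locus at which the strains diverge. The genes were 8 receptors taken by symbol, Htr1a, Htr1b, Htr2a, Htr2c, Htr3a, Htr4, Htr5a and Htr7. Short probes on the array are combined into probe sets, each read as 1 signal for a transcript, and 12 of the 45077 probe sets carried the symbols of 7 of the 8 genes, out of 22527 gene symbols in all. Htr2a was not analysed here. Of these 7 genes, 5 had 2 probe sets and 2 had 1.

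Serotonin is released in the cortex by axons that arrive from the raphe nuclei of the brainstem, so the cortex holds the receptors while the cell bodies that make serotonin lie elsewhere. All members except Htr3a encode receptors that act through G proteins. Htr1a, Htr1b and Htr5a couple to inhibitory Gi/o proteins, which lower cyclic AMP. Htr2a and Htr2c couple to Gq, which releases calcium from internal stores, and Htr4 and Htr7 couple to Gs, which raises cyclic AMP. Htr3a encodes a subunit of a cation channel opened directly by serotonin and, in cortex, marks a class of interneurons. In tissue RNA a lower signal can come from fewer cells of a type or from less RNA per cell, and these cannot be told apart.

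The authors deposited the mean log2 signal of each group and no value of a single array entered here. The differences below are therefore differences of group means, with no standard deviation, standard error or p-value, and none could be set against the spread between mice. Rounding of the means to 2 decimals alone can move a difference by up to 0.01. A size of 1.2-fold, 0.263 on the log2 scale, was used to pick out the larger differences, and the share of all probe sets past the same size was taken as the background.

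The 7 serotonin receptor genes with probe sets differed little between the groups, and 5 of their 12 probe sets lay at or below the median signal of all probe sets. In SAMP8 control vs. SAMR1, the 12 probe sets had a median absolute difference of 0.06 on the log2 scale, against 0.07 over all probe sets, and ran from -0.29 to 0.11. Past 1.2-fold, 1 of the 12 was lower in SAMP8 control, a probe set of Htr4, where 3.43% of all probe sets were, and 0 were higher, where 3.68% were. With STEE, compared with SAMP8 control, the same median was 0.055, against 0.06 over all probe sets, with a range from -0.08 to 0.20. None of the 12 was past 1.2-fold with STEE, in either direction, where 1.03% of all probe sets were higher and 0.976% lower. The members' counts thus lay near the background in both comparisons.

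**Figure D1:**
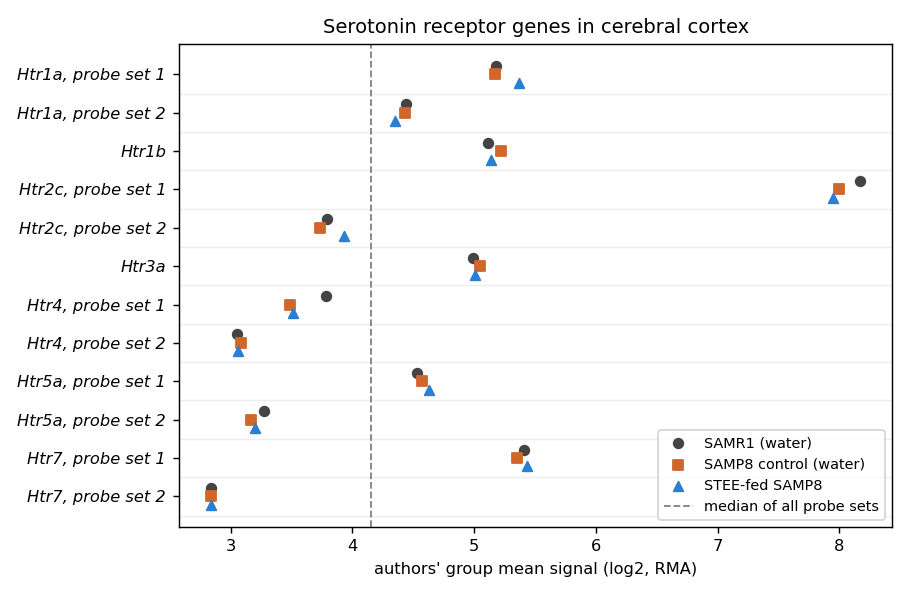
Authors' mean log2 signal (x axis, RMA) of each serotonin receptor probe set (rows) in SAMR1 (circles), SAMP8 control (squares) and STEE-fed SAMP8 (triangles), with no error bars because only group means were used. Probe set 1 of a gene is the one with the higher mean signal, and the dashed line marks the median of all probe sets, 4.15. The 3 groups lie close together in every row, with the widest separation between groups in Htr4 probe set 1, where SAMR1 stands at 3.78 and SAMP8 control at 3.49.

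Of the inhibitory receptors, Htr1a is the autoreceptor of serotonin neurons and also a receptor on cortical pyramidal cells. Its probe set 1438710_PM_at had a mean log2 signal of 5.18 in SAMR1, 5.17 in SAMP8 control and 5.37 with STEE. The other, 1450219_PM_at, had 4.44, 4.43 and 4.35 in the same order. Neither probe set separated the strains, with a difference of -0.01 at each. With STEE the 2 probe sets went opposite ways, the former higher by 0.20 and the latter lower by 0.08 on the log2 scale. Their mean differed by 0.06, so that a direction for Htr1a with STEE depended on which probe set was read.

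Htr1b, which on axon terminals restrains transmitter release, had 1 probe set, 1422288_PM_at. Its mean log2 signal was 5.11 in SAMR1, 5.22 in SAMP8 control and 5.14 with STEE. The SAMP8 control value was the highest of the 3, by 0.11 over SAMR1 and by 0.08 over STEE-fed SAMP8. Over all probe sets, 36.0% differed at least as much between the strains and 40.8% with STEE. Htr5a, a Gi/o-coupled receptor of the brain, had mean log2 signals of 4.53, 4.57 and 4.63 in SAMR1, SAMP8 control and STEE-fed SAMP8 at 1443276_PM_at, and 3.27, 3.17 and 3.20 at 1422207_PM_at. Both probe sets were slightly higher with STEE, by 0.06 and 0.03. Between the strains they had opposite signs, 0.04 and -0.10.

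Htr2c, the Gq-coupled receptor known for its abundance in choroid plexus and for editing of its RNA, lay high in the range of the array at 1 of its probe sets. At 1435513_PM_at, whose mean exceeded that of 92.4% of all probe sets, the mean log2 signal was 8.17 in SAMR1, 8.00 in SAMP8 control and 7.95 with STEE. The strain difference of -0.17 corresponds to a ratio of 0.889 and was the second largest among the members. STEE-fed SAMP8 lay 0.05 below SAMP8 control and 0.22 below SAMR1. The other probe set, 1450477_PM_at, lay below the median of all probe sets, with 3.79 in SAMR1, 3.73 in SAMP8 control and 3.93 with STEE. Relative to SAMR1, SAMP8 control was lower at both probe sets. Relative to SAMP8 control, STEE-fed SAMP8 was higher by 0.20 at the dimmer probe set and lower by 0.05 at the brighter. Marker genes of choroid plexus moved with the strains as well, as given below, and their part in the Htr2c values was not tested.

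Htr4, a Gs-coupled receptor, held the largest strain difference among the members. At 1443365_PM_at its mean log2 signal was 3.78 in SAMR1, 3.49 in SAMP8 control and 3.51 with STEE. SAMP8 control was lower by 0.29, a ratio of 0.818, and STEE-fed SAMP8 was lower than SAMR1 by 0.27. Both SAMP8 groups thus stood together below SAMR1, with 0.02 between them. This signal was low in the range of the array, above that of 37.9% of all probe sets. The other probe set, 1427654_PM_a_at, was lower still and flat, at 3.05, 3.08 and 3.06. Averaged over both, Htr4 differed by -0.13 between SAMP8 control and SAMR1 and did not pass 1.2-fold. As large a strain difference as that of the first probe set was found in 5.91% of all probe sets.

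Htr7, the other Gs-coupled member, had mean log2 signals of 5.41 in SAMR1, 5.35 in SAMP8 control and 5.43 with STEE at 1435332_PM_at. SAMP8 control was the lowest of the 3, by 0.06 and 0.08. At 1422235_PM_at the signal was 2.84 in every group, above that of 12.3% of all probe sets and near the bottom of the array, where the lowest mean was 2.03. A probe set with so low a signal gives little information on a difference. Htr3a, the channel subunit, had 1 probe set, 1418268_PM_at, with 4.99 in SAMR1, 5.05 in SAMP8 control and 5.01 with STEE. Its differences of 0.06 between the strains and -0.04 with STEE were among the smaller ones, and 61.0% and 68.6% of all probe sets differed as much or more.

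**Figure D2:**
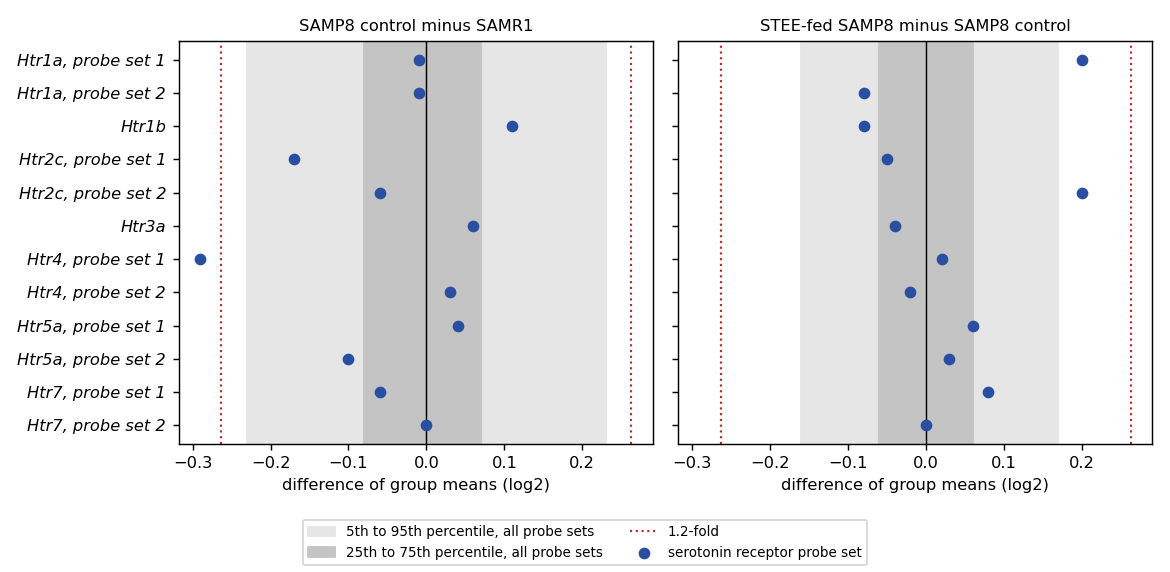
Difference of authors' group means (x axis, log2) for each serotonin receptor probe set (rows) in SAMP8 control minus SAMR1 (left) and STEE-fed SAMP8 minus SAMP8 control (right), over bands that hold the middle of all 45077 probe sets. Htr4 probe set 1, at -0.29, is the only point past the dotted 1.2-fold lines, and with STEE probe set 1 of Htr1a and probe set 2 of Htr2c lie at 0.20, beyond the 95th percentile of 0.17.

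A smaller size of 1.1-fold, 0.138 on the log2 scale, added few members. Between the strains, 2 of the 12 probe sets were lower in SAMP8 control, those of Htr4 and Htr2c described above, and 0 were higher. Over all probe sets, 13.5% were lower and 12.4% higher by this size. With STEE, 2 of the 12 were higher, 1 each of Htr1a and Htr2c, and 0 were lower, where 8.25% of all probe sets were higher and 8.0% lower. At 1.5-fold no member was past the size in either comparison, against 0.876% of all probe sets between the strains and 0.0799% with STEE. Counts of 1 or 2 among 12 are too few to set apart from these shares.

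STEE-fed SAMP8 was also set against SAMR1, a pair of groups without the SAMP8 control arrays. Htr4 was lower by 0.27 at its brighter probe set, and it was the only 1 of the 12 probe sets past 1.2-fold in this pair, where 3.25% of all probe sets were lower and 4.6% higher. Htr2c was lower by 0.22 at the brighter and higher by 0.14 at the dimmer probe set. Htr1a was higher by 0.19 at the brighter and lower by 0.09 at the dimmer one. Htr5a was at 0.10 and -0.07. Htr1b, Htr3a and Htr7 stayed within 0.03 of SAMR1 at each of their probe sets.

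How well 2 probe sets of a gene agree bears on the values above of the genes that have 2. The probe sets were read from the same arrays, so their agreement gives no measure of the spread between mice. For 5284 genes with exactly 2 probe sets of their own, these had opposite signs in 39.8% between the strains and in 39.3% with STEE. Among the 5 receptors with 2 probe sets, signs were opposite for 2 between the strains, Htr4 and Htr5a, and for 3 with STEE, Htr1a, Htr2c and Htr4. The probe sets of Htr1a were 0.28 apart in their difference with STEE and those of Htr2c 0.25, against a median of 0.08 over all such genes. Gaps at least as wide were found in 3.65% and 5.77% of the genes. The gap of Htr4 between the strains, 0.32, was reached by 6.57%. The gap of Htr2c between the strains was 0.11, which 47.6% of the genes reached. The genes with the widest gaps are partly those singled out for 1 large difference, so these shares are a description. The sequences matched by the single probes were not analysed here.

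Only 3 group means were used for each probe set, which leaves the likeness of patterns nearly without information. Within 0.02 of Htr4 at its brighter probe set in both differences lay 105 of the 45076 other probe sets, and within 0.02 of Htr1a at its brighter probe set lay 95. No gene was named from them.

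The remaining genes of the serotonin system were each read at the brightest probe set, that of highest mean signal over the groups. Of 53 such genes, 5 were higher and 4 lower in SAMP8 control than SAMR1 past 1.2-fold, and 0 passed that size with STEE. Averaged over all probe sets of each gene, the strain counts were 3 and 2. Over all 22527 genes, 3.68% were higher and 3.19% lower between the strains, and 1.1% were higher and 0.923% lower with STEE. The same background holds for the receptors described above, of which 1 of 7 genes, Htr4, was lower between the strains and 0 of 7 were past 1.2-fold with STEE.

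Among 6 other serotonin receptors, Htr1f stood apart. Htr1f encodes a Gi/o-coupled receptor related to Htr1b. Its mean log2 signal at 1440422_PM_at was 3.37 in SAMR1, 4.32 in SAMP8 control and 4.34 with STEE. Both SAMP8 groups thus lay above SAMR1, by 0.95 and 0.97 on the log2 scale, and 0.299% of all probe sets differed as much between the strains. The SAMR1 signal was below the median of all probe sets, 4.15, so the size of the difference rests on a low signal. The second Htr1f probe set, 1450548_PM_at, was also higher in SAMP8 control but by 0.17, with 3.22, 3.39 and 3.45. The receptors Htr1d, Htr2b, Htr3b, Htr5b and Htr6 differed by at most 0.10 in either direction between the strains and by at most 0.07 with STEE at the probe set of highest signal.

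**Figure D3:**
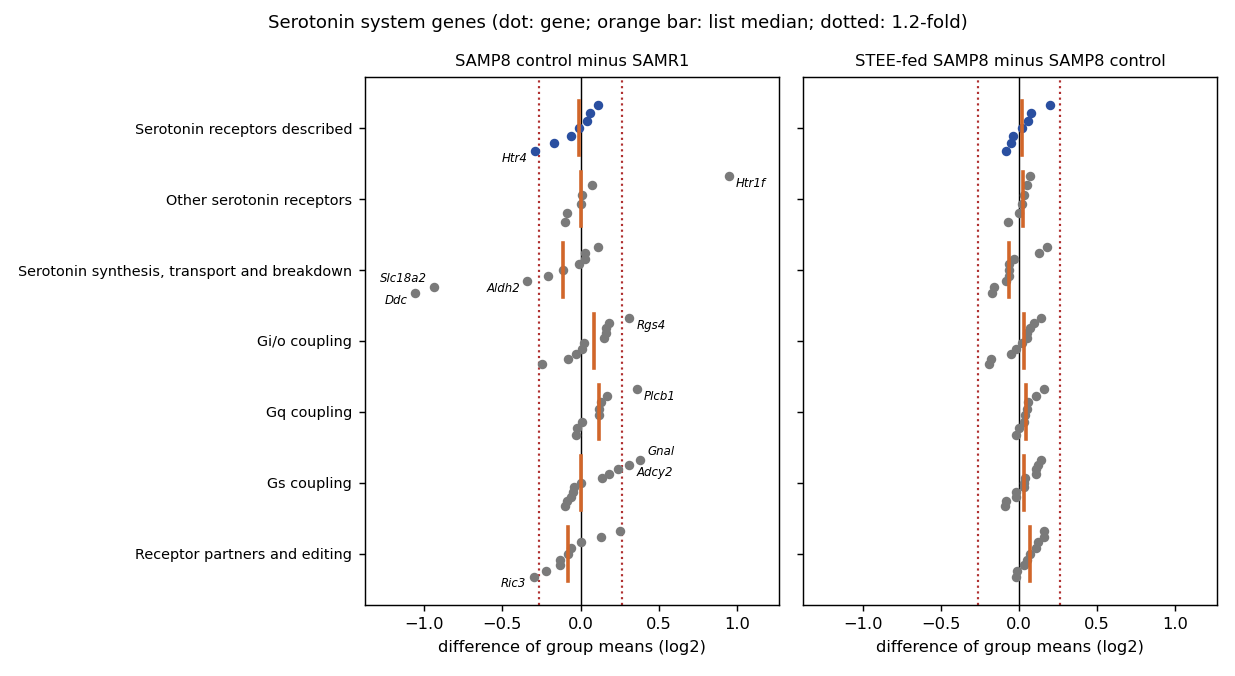
Difference of authors' group means (x axis, log2) of each gene at its brightest probe set (dots) for the 7 serotonin receptors described and 6 lists of serotonin system genes (rows), in SAMP8 control minus SAMR1 (left) and STEE-fed SAMP8 minus SAMP8 control (right). Htr1f at 0.95, Ddc at -1.06 and Slc18a2 at -0.94 lie far from the rest between the strains, and no gene lies past the dotted 1.2-fold lines with STEE.

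Of 9 genes for serotonin synthesis, transport and breakdown, 3 were lower and 0 higher in SAMP8 control than in SAMR1, with a list median of -0.11 against 0.00 over all genes. Ddc, the decarboxylase that completes serotonin and dopamine synthesis, had a mean log2 signal of 5.61 in SAMR1, 4.55 in SAMP8 control and 4.49 with STEE. Its other probe set was at 3.59, 3.62 and 3.56, without a separation of the groups. Slc18a2, which loads monoamines into vesicles, had 3.63, 2.69 and 2.53 at its only probe set. The mean of this probe set exceeded that of 16.3% of all probe sets, so the size of the difference rests on a low signal. Ddc and Slc18a2 both serve dopamine and noradrenaline neurons as well as serotonin neurons. Aldh2, an aldehyde dehydrogenase that acts after monoamine oxidase, had 7.09, 6.75 and 6.93, and averaged over its 5 probe sets it differed by -0.08 between the strains. Genes that mark serotonin neurons themselves were below the median of the array in every group. Tph2, the brain's tryptophan hydroxylase, had 2.64, 2.43 and 2.56, the transporter Slc6a4 3.16, 3.15 and 3.09, and the transcription factor Fev 3.97, 4.0 and 3.97. Monoamine oxidases differed little, Maoa by -0.11 and Maob by 0.11 between the strains and by -0.08 and -0.17 with STEE.

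The genes for G protein coupling past 1.2-fold at the brightest probe set were all higher in SAMP8 control. Striatal marker genes were higher in SAMP8 control as well, all 10 of 10 past 1.2-fold with a median of 0.665, and their part in these values was not tested. Of 10 genes for Gi/o coupling, 1 was past 1.2-fold, Rgs4, a protein that speeds the shut-off of Gi/o and Gq signals. Rgs4 had a mean log2 signal of 9.46 in SAMR1, 9.77 in SAMP8 control and 9.82 with STEE, and all 3 of its probe sets were higher in SAMP8 control, by 0.31, 0.44 and 0.86. Of 8 genes for Gq coupling, Plcb1, the phospholipase that Gq activates, was higher by 0.36, with 9.16, 9.52 and 9.52; averaged over its 5 probe sets the difference was 0.20. Of 11 genes for Gs coupling, 2 were past 1.2-fold, Gnal by 0.38 and the adenylyl cyclase Adcy2 by 0.31. Gnal encodes the Gs-like subunit typical of striatum, and averaged over its 3 probe sets it differed by 0.22, within 1.2-fold. The Gs subunit gene Gnas differed by 0.00 at its brightest probe set. Of its 5 probe sets 4 were lower in SAMP8 control, dim ones by as much as -0.47 and -0.34, and the average was -0.20. The list medians were 0.085 for Gi/o, 0.12 for Gq and 0.00 for Gs coupling, against 0.00 over all genes. Among 9 receptor partners and RNA-editing genes, 1 was lower, Ric3, a chaperone for channels of the Htr3a type, with 5.30, 5.0 and 5.11; its 2 other probe sets were higher by 0.06 and 0.11. S100a10, which binds Htr1b and Htr4 and brings them to the cell surface, differed by 0.25 at its brightest probe set, and its other probe sets differed by 0.46 and -0.12. The RNA-editing enzymes Adar and Adarb1 differed by -0.06 and -0.13.

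With STEE every gene of the 6 lists stayed within 1.2-fold at its brightest probe set, and also when averaged over its probe sets. The adenylyl cyclase gene Adcy9 was higher at all 4 of its probe sets, by 0.14, 0.22, 0.29 and 0.26. The value of 0.29 was past 1.2-fold, and the average was 0.23. The list medians ran from -0.06 for synthesis, transport and breakdown to 0.07 for receptor partners and editing. At the brightest probe set, the farthest from 0 among the 53 genes was Gnai3, a Gi subunit, at -0.19. Next were Aldh2 at 0.18 and the potassium channel gene Kcnj6 at -0.18. Averaged over probe sets, Gnai3 differed by -0.17 and Aldh2 by 0.11, while 3 of the 5 probe sets of Kcnj6 were higher.

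The tissue label was checked with marker genes. Excitatory cortical neurons were represented in each group, with all 4 markers used above the median of the array, among them Slc17a7 at 7.05, 7.10 and 7.19 and Tbr1 at 8.12, 8.28 and 8.57 in SAMR1, SAMP8 control and STEE-fed SAMP8. Tbr1 was higher by 0.29 with STEE, and the other 3 were within 1.2-fold in both comparisons, as Tbr1 was between the strains. Genes typical of regions next to the cortex also differed between the strains. All 10 striatal genes were higher in SAMP8 control by at least 1.2-fold, from 0.32 to 1.03, and their mean log2 signal was 7.56 in SAMR1, 8.21 in SAMP8 control and 8.26 with STEE. Averaged over the probe sets of each gene, 7 of the 10 passed this size. Of 6 thalamic genes 3 were lower and 0 higher, with a mean of 5.89, 5.43 and 5.32. Of 8 hippocampal genes 4 were lower and 0 higher, with a mean of 4.66, 4.41 and 4.47. The 4 were Cpne7 at -0.58, Dsp at -0.56, Grp at -0.52 and Fibcd1 at -0.28. Dsp and Fibcd1 had signals below the median of the array, and the other hippocampal genes were within 1.2-fold. Since Htr4 and Htr2c are also expressed in striatum and hippocampus, and Htr7 in thalamus, these marker values stand beside the receptor values; their part in the receptor differences was not tested. With STEE, 0 of the striatal genes passed 1.2-fold, 1 of the hippocampal genes was higher, Grp by 0.32, and of the thalamic genes Plekhg1 was higher by 0.42, or by 0.21 averaged over its 2 probe sets, and Calb2 differed by -0.73.

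Choroid plexus genes, relevant to Htr2c, were lower in SAMP8 control for 4 of 9 and higher for 0, and their mean log2 signal was 5.14 in SAMR1, 4.73 in SAMP8 control and 4.87 with STEE. Ttr, the transthyretin gene that dominates this tissue, was at 10.20, 8.24 and 9.33. The 4 lower genes were Ttr at -1.96, Sostdc1 at -0.49, Kcnj13 at -0.43 and Otx2 at -0.32. Averaged over the probe sets of each gene, 5 of the 9 were lower. Of the 9 genes, 6 lay at or below the median of the array over the groups, Folr1, Kcnj13, Kl, Aqp1, Otx2 and Sostdc1. With STEE, Ttr was higher by 1.09 and the other 8 were within 1.2-fold. Beside these values, Htr2c differed by -0.17 and -0.06 between the strains and by -0.05 and 0.20 with STEE at its brighter and dimmer probe sets.

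Htr3a stayed near 0 while several genes of the interneuron class that carries it did not. Of 10 such genes, 5 were higher and 0 lower in SAMP8 control than in SAMR1, with a list median of 0.275, and averaged over the probe sets of each gene 3 were higher and 1 lower. Vip, a neuropeptide of these cells, had a mean log2 signal of 7.84 in SAMR1, 8.71 in SAMP8 control and 8.85 with STEE. Lamp5 was higher by 0.56, Npy by 0.47, Reln by 0.44 and Ndnf by 0.34. Averaged over the 2 probe sets of each, Reln differed by 0.24 and Ndnf by 0.21, within 1.2-fold. Prox1 differed by -0.15 at its brightest probe set and by -0.32 averaged over its 3, and Calb2 differed by -0.11. Npy, Reln and Lamp5 are not restricted to this class, and Htr3a differed by 0.06. With STEE, Calb2, which is also a thalamic marker here, differed by -0.73 and Ndnf by -0.40, the latter by -0.26 averaged over its 2 probe sets, and 0 of the 10 were higher by 1.2-fold. Of 4 markers of interneurons in general or of other classes, Gad1, Gad2, Pvalb and Sst, 0 passed 1.2-fold in either comparison at the brightest probe set. Averaged over its 2 probe sets, both higher in SAMP8 control, Gad1 differed by 0.44 between the strains and passed this size.

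**Figure D4:**
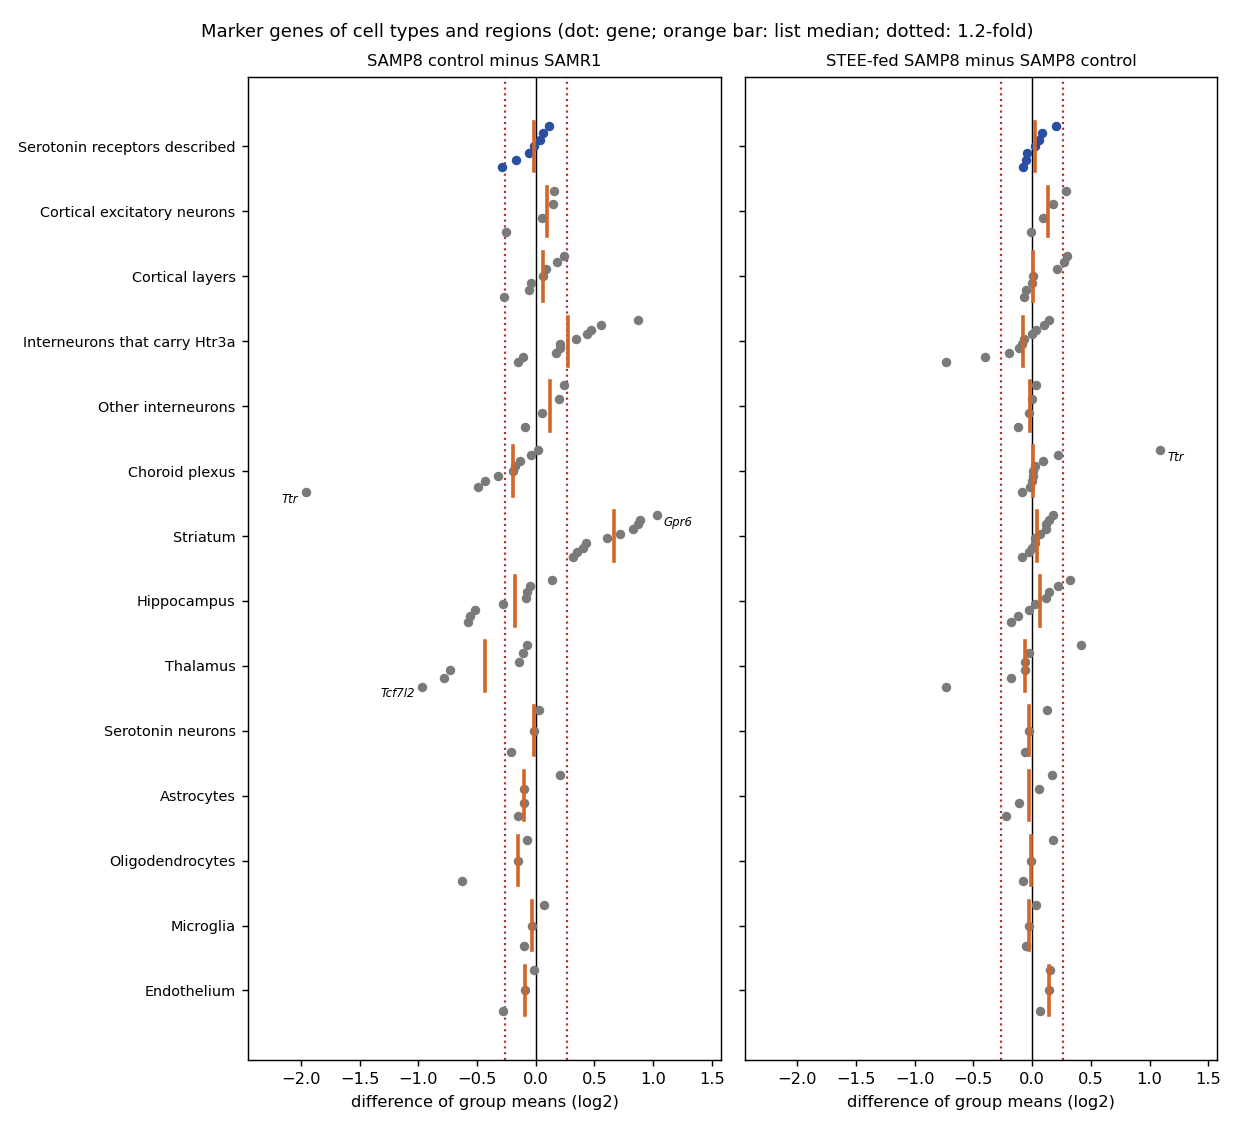
Difference of authors' group means (x axis, log2) of marker genes at the brightest probe set of each (dots), with the 7 serotonin receptors described in the top row, in SAMP8 control minus SAMR1 (left) and STEE-fed SAMP8 minus SAMP8 control (right). Between the strains the striatal genes all lie to the right of the dotted 1.2-fold line, while Ttr lies at -1.96, and with STEE the list medians run from -0.08 for interneurons that carry Htr3a to 0.14 for endothelium.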

How the data were processed

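Cortical RNA, in 2 biological samples for each group, was hybridised to Affymetrix mouse array strips, 6 arrays in all. The methods do not state whether each sample came from a single mouse. Per the file headers and the methods, the authors summarised the intensities with RMA in Expression Console, and deposited from the Transcriptome Analysis Console bi-weight averages over each group, on the log2 scale and with 2 decimals. The columns with fold changes, ANOVA p-values and FDR p-values of the authors' own comparisons were not used. No value of a single array was used, so no test was run and the number of arrays limits the precision. The SAMP8 control column was identical in both tables (0 of 45077 probe sets differed).

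Groups were taken from the sample titles. Members were matched by symbol after splitting entries at semicolons. The log2 differences between group means were computed in Python 3.11.15 with numpy 2.4.6 and pandas 2.3.3, and figures drawn with matplotlib 3.10.9. A size of 1.2-fold replaced a test. A gene was read at its brightest probe set, by mean signal over the groups. All members were named, and from the other lists the genes past 1.2-fold, at most 6 for a list and comparison, and the markers of the tissue check; other genes were named after their values were seen. Members and lists were chosen with earlier results of these data known. A marker from the lists is not reported here. Counting was tested on simulated data. The alternatives were the mean or median over probe sets, other folds, a signal filter, centring of the groups, omission of probe sets ending in _s_at or _x_at, and the other table's SAMP8 control column.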

Additional observations from a re-analysis of the deposited data

How the results depend on the processing

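With the mean or the median over all probe sets of a gene in place of the brightest one, which are the same for 2 probe sets, the differences between SAMP8 control and SAMR1 were -0.115 for Htr2c, -0.13 for Htr4, -0.03 for Htr5a and -0.03 for Htr7, and those with STEE were 0.06 for Htr1a, 0.075 for Htr2c, 0.00 for Htr4, 0.045 for Htr5a and 0.04 for Htr7. Htr5a between the strains and Htr2c with STEE thereby changed sign. The number of genes lower in SAMP8 control by 1.2-fold went from 1 to 0 with this setting, and the number of probe sets from 1 to 0 when those at or below the median signal were left out, because the Htr4 probe set has a low signal. At 1.1-fold, 2 genes and 2 probe sets were lower between the strains, and 1 gene and 2 probe sets were higher with STEE; at 1.5-fold the numbers were 0. Centring the groups, whose medians were 4.16 in SAMR1 and 4.15 in both SAMP8 groups, moved no difference by more than 0.01 and changed no number. Probe sets ending in _s_at or _x_at included 0 of the members, and the other table's SAMP8 control column was identical. Omitting the former or using the latter could therefore change no value of a member. No paired analysis was possible because only group means were used, and for the same reason no array could be left out. The spread between mice is unknown here, and low signals limit what could be seen. Both probe sets of Htr4 and the dimmer ones of Htr2c and Htr5a lay below the median of the array, and the dimmer one of Htr7 near its bottom.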

Other observations

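Marker genes of glia and endothelium entered no comparison of the receptors. In SAMP8 control vs. SAMR1, 0 of 4 astrocyte and 0 of 3 microglia genes were past 1.2-fold, while 1 of 3 oligodendrocyte genes, Mog, a myelin surface protein, was lower by 0.63 and 1 of 3 endothelial genes, Cldn5, a tight junction protein, by 0.28. Averaged over its 8 probe sets, all lower in SAMP8 control, the myelin gene Mbp differed by -0.35, so that 2 of 3 oligodendrocyte genes were then lower. With STEE none of these was past 1.2-fold. Among 7 genes of cortical layers, Cux2, of the upper layers, had a mean log2 signal of 8.00 in SAMR1, 7.73 in SAMP8 control and 8.03 with STEE, and Fezf2, of deep layers, had 5.93, 5.99 and 6.26. Both were higher with STEE by at least 1.2-fold, by 0.30 and 0.27, and Cux2 was the only 1 of the 7 past 1.2-fold between the strains, lower by 0.27. Averaged over its 3 probe sets, Cux2 differed by -0.18 between the strains and by 0.11 with STEE, within 1.2-fold in both.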
